A study of Rattus norvegicus with 9 samples.

Results

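The genes described here encode inhibitors of bone morphogenetic protein (BMP) signaling or of neighbouring pathways, several of them known to be switched on by BMPs, and they were measured in cultured rat sympathetic neurons with and without BMP-7. There are 8 of them among the 4736 genes that could be named on the array: Nog, Fst, Grem1, Chrd, Tmeff1, Pmepa1, Smad7 and Cxxc5. They are represented by 10 of the 7006 probe sets that name a single gene, since Nog and Fst have a pair each. The genes were selected by their roles with their fold changes on these same arrays already known, and Nog, Tmeff1, Pmepa1 and Cxxc5 also stand in the study's own lists of transcripts regulated by BMP-7. Their differences between conditions are therefore given as a description, without p-values.

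BMPs are secreted ligands that bind type I and type II serine/threonine kinase receptors, which phosphorylate Smad1, Smad5 and Smad9; these join Smad4 and act on target genes in the nucleus. The pathway is held back at several levels: antagonists outside the cell bind the ligand, membrane proteins interfere with receptors or Smads, and inhibitory Smads block the receptor from inside. Many of these inhibitors are targets of the pathway, which gives negative feedback. In sympathetic neurons, BMPs are known for inducing dendrites.

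RNA came from superior cervical ganglion neurons of Holtzman rats at embryonic day 21, cultured in serum-free C2 medium with 100 ng/ml nerve growth factor. All cultures, controls included, had been exposed for 48 hr to Ara-C, which removes dividing non-neuronal cells. On day 5, cultures received 50 ng/ml BMP-7 for 6 hr (BMP6h) or 24 hr (BMP24h), or medium alone for 24 hr (control), so BMP6h has no control of its own duration, although RNA of all conditions was harvested at the same culture age. Each group holds 3 arrays, 1 for each of 3 dissections, and every dissection gave 1 RNA sample of each condition, pooled from several cultures. The labels do not say whether a replicate number stands for the same dissection in every group. The arrays were processed in batches: batch 1, with 10 µg cRNA, holds replicate 1 of every group, and batch 2, with 5 µg, holds the others. Values are log2 expression on Affymetrix Rat Genome U34A arrays, so 1 unit is a doubling.

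Replicate 2 of BMP6h stood apart. In that array 9.99% of the 8740 probe sets differed by over 1 log2 unit from what the remaining BMP6h arrays averaged, against 4.21% for BMP6h replicate 3, 3.84% for control replicate 3 and 0.0229 to 1.09% for the remaining arrays. The fold changes at 6 hr of the genes named below are also given without it. Exceptions are the likeness ranking, the other probe sets of pathway genes and the counts of arrays that do not overlap. The neuronal label was borne out by its markers: Th, which makes the catecholamine precursor L-DOPA, had a control mean of 13.49, Dbh, which turns dopamine into noradrenaline, of 11.94, and Prph, a neuronal intermediate filament, of 13.02. The control means of the 10 measured glial markers ran from 3.64 for Fabp7 and 4.57 for Sox10 to 9.26 for Apoe and 12.03 for Pmp22. The fibroblast markers Col1a1 and Sparc stood at 10.30 and 12.62. The mean over the fibroblast list (12 of 12 measured) was 9.60 to 9.89 in the control arrays, 9.66 to 9.74 in BMP6h and 9.38 to 9.57 in BMP24h, so its BMP24h range lay below the control range. None of its genes passed the adjusted test in any comparison. For sympathetic neurons (11 of 15) the same mean was 11.35 to 11.38, 11.41 to 11.45 and 11.16 to 11.44, so its BMP6h range lay above control. For glia (10 of 14) it was 7.38 to 7.46, 7.36 to 7.36 and 7.33 to 7.56, so its BMP6h range lay below control. For endothelial and mural cells (8 of 10) it was 6.95 to 7.23, 6.78 to 6.98 and 6.81 to 6.94, so its BMP24h range lay below control. In that list Kdr was farthest from 0 at 24 hr, at -1.39, with a control SD of 1.15. The list median at 24 hr was -0.12, and Acta2, Des and Tagln were higher (0.32, 0.18 and 0.13). For macrophages and blood cells (8 of 10) the mean was 6.86 to 6.92, 6.88 to 6.99 and 6.81 to 6.87. No gene of these lists passed the test, and the part of other cell types in the values below was not tested.

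Because several of these genes are known Smad targets, the DNA around their transcription starts was read from the RefSeq promoter table of the rat build GRCr8, which holds 7 of the 8; Fst was not matched. Each window runs from 250 bases before the start to 50 after it, 5′ to 3′ along the gene, and the capitals mark GGCGCC, a GC-rich motif bound by BMP Smads, and CAGAC or its reverse complement GTCTG, the Smad box. The whole windows of the genes with higher values after BMP-7 and a start at the outer end of the gene are Nog (chr10:74627452-74627751, minus strand), Tmeff1 (chr5:67706019-67706318, plus), Pmepa1 (chr3:182478600-182478899, minus) and Smad7 (chr18:71263258-71263557, plus):
Nog: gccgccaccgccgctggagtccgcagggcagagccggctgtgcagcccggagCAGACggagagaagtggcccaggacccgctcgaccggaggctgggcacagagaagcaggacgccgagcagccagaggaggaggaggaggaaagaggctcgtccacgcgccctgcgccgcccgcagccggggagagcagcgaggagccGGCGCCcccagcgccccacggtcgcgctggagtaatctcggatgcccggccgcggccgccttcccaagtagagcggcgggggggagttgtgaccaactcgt
Tmeff1: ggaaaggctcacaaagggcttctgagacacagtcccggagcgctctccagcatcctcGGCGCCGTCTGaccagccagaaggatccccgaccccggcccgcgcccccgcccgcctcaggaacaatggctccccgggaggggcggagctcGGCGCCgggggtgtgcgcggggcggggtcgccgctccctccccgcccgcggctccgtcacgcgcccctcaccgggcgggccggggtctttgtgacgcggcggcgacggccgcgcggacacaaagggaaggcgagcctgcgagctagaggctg
Pmepa1: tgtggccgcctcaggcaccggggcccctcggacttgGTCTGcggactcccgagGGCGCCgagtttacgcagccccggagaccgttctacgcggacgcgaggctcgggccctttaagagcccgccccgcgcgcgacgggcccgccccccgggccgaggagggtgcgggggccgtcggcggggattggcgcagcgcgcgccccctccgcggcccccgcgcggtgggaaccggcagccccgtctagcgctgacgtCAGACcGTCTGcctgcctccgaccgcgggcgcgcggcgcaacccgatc
Smad7: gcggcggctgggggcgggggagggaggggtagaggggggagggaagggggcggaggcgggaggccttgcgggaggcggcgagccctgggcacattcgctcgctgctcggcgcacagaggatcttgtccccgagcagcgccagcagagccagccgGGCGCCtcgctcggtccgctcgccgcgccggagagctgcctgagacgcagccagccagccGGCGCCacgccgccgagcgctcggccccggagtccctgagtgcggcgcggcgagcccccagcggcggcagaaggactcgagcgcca

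In the Nog window GGCGCC began 51 bases before the start and CAGAC 198 bases before it. Tmeff1 held GGCGCC at 193 and 102 bases before the start, and the first copy ran straight into a GTCTG at 187. Pmepa1 held GGCGCC at 197 bases before the start, GTCTG at 214 before, and a CAGAC and a GTCTG at 2 and 8 bases after it. Smad7 held GGCGCC at 96 and 36 bases before the start and no CAGAC on either strand. The motif-bearing stretches of the remaining genes, shown for comparison, come from Grem1 (chr3:120978270-120978569, minus), Chrd (chr11:93685051-93685350, minus) and Cxxc5 (chr18:27729122-27729421, plus). The starts that the table gives for Chrd and Cxxc5 lie inside the gene, not at its outer end:
Grem1, 91 before the start: cgcggcggcgacGGCGCCtgaccaatggag
Grem1, 3 before the start: gtgtgcccttcgCAGACctggggagccag
Chrd, 203 before the start: cgggccagagccGGCGCCtagggcactaga
Chrd, 7 after the start: gcctccccagctGTCTGctccgcgtcatg
Cxxc5, 110 before the start: ctaatgcctcatCAGACttctggtcgtta

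GGCGCC, which is its own reverse complement, was found in 6 of the 7 windows, all but that of Cxxc5, and in 3688 of all 33469 promoter windows. The 6 windows are rich in G and C (70 to 78.7%, against a median of 51.7% over all windows), and 47.1% of the 2769 windows with at least 70% GC hold the motif. CAGAC or GTCTG was found in 6 of the 7 windows, all but that of Smad7, and in 50.1% of all. The palindromic Smad motif GTCTAGAC, its own reverse complement, was in none of the 7 and in 0.197% of all. Grem1 and Chrd, whose arrays overlapped between conditions, held GGCGCC as well, and Cxxc5, higher at both times, did not hold it in this window. A match of letters is a description, not a site.

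**Figure D1:**
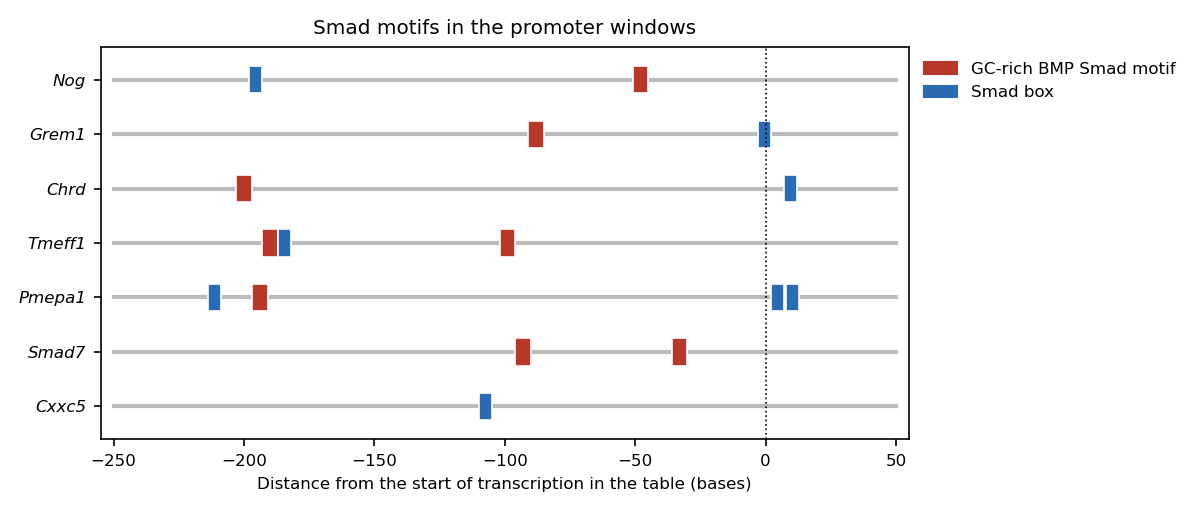
Motif matches in the promoter windows of 7 genes, with the distance from the transcription start in bases on the x axis and 1 line per gene; colored boxes mark the GC-rich BMP Smad motif and the Smad box. The GC-rich motif lies between 203 and 36 bases before the start in 6 genes and is not in the Cxxc5 window.

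Among the secreted antagonists, Nog had the greatest difference after BMP-7 of the 8 genes. Nog encodes noggin, which binds BMPs and keeps them from their receptors. At probe set U31203_at the control arrays (replicates 1 to 3) read 5.82, 6.30 and 5.23. The BMP6h arrays read 7.83, 7.96 and 7.85, and the BMP24h arrays 8.62, 8.82 and 8.40. All BMP6h arrays lay above all control arrays, and all BMP24h arrays above all BMP6h arrays. On the log2 scale Nog was 2.10 above control at 6 hr and 2.83 above it at 24 hr (SE 0.26 each, n = 3 a group), that is 4.29-fold and 7.14-fold, and 0.74 higher at 24 hr than at 6 hr. Batch 1 and batch 2 taken alone gave 2.01 and 2.14 at 6 hr, and 2.80 and 2.85 at 24 hr. Without BMP6h replicate 2 the 6 hr value was 2.06 and the difference between the times 0.78. In such bulk RNA, a change in the share of a cell type and a change in RNA per cell cannot be told apart.

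The other Nog probe set, rc_AA859752_at, was dimmer. Its control arrays read 2.88, 3.69 and 4.71, its BMP6h arrays 5.04, 4.62 and 5.01, and its BMP24h arrays 6.68, 5.56 and 5.61. The BMP24h arrays were again above all others, while BMP6h replicate 2 fell 0.09 below control replicate 3. Its log2 fold changes were 1.13 at 6 hr (1.28 without BMP6h replicate 2) and 2.19 at 24 hr (SE 0.49), with 2.17 and 0.61 in batch 1 and batch 2 alone at 6 hr and 3.80 and 1.38 at 24 hr. The 6 hr value ran from 0.47 without control replicate 1 to 1.65 without control replicate 3. Its control values lay at percentile 5.43 of all probe sets, and those of U31203_at at percentile 29.2. On control replicate 1 the lowest value of any probe set was 2.88, equal to the reading of rc_AA859752_at. The batch 1 differences of this probe set thus start from the floor of that array. Both probe sets thus had the same order of means, control, BMP6h, BMP24h, with different sizes.

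Fst encodes follistatin, which binds activins tightly and also BMPs. At rc_AA858520_at the control arrays read 8.69, 8.91 and 8.45, the BMP6h arrays 8.63, 9.41 and 8.53, and the BMP24h arrays 9.50, 9.52 and 8.83. The groups overlapped in every comparison: BMP6h replicate 2 was high, and BMP24h replicate 3 lay below control replicate 2. As a log2 fold change, Fst was at 0.17 at 6 hr, or -0.13 without BMP6h replicate 2, and 0.60 at 24 hr (SE 0.29; 95% interval -0.09 to 1.28). The 24 hr value ran from 0.43 without BMP24h replicate 1 to 0.85 without BMP24h replicate 3. The partner probe set rc_AA858520_g_at, built on the same expressed sequence tag, gave 0.16, or -0.18 without BMP6h replicate 2, and 0.49 (SE 0.32), and its arrays overlapped too. The pair does not give independent measurements.

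Grem1 and Chrd encode gremlin and chordin, both of which bind BMPs outside the cell. Grem1 read 6.32, 6.52 and 6.26 in control, 6.40, 5.84 and 6.55 in BMP6h, and 6.20, 6.08 and 6.59 in BMP24h. BMP6h replicate 2 was its lowest array, and the groups overlapped throughout. The Grem1 difference from control was -0.10 log2 units at 6 hr (95% interval -0.62 to 0.41), or 0.13 without that array, and -0.08 at 24 hr (-0.59 to 0.44). Chrd read 5.21, 5.66 and 4.88 in control, 5.16, 4.71 and 5.18 in BMP6h, and 5.03, 5.08 and 5.27 in BMP24h. Its log2 fold changes were -0.24 (-0.76 to 0.29), or -0.07 without BMP6h replicate 2, and -0.12 (-0.65 to 0.40), again with overlapping arrays. Each of these intervals holds differences of both signs, so with 3 arrays a group no direction can be given. Chrd was a dim probe set, at percentile 20.0 in control.

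**Figure D2:**
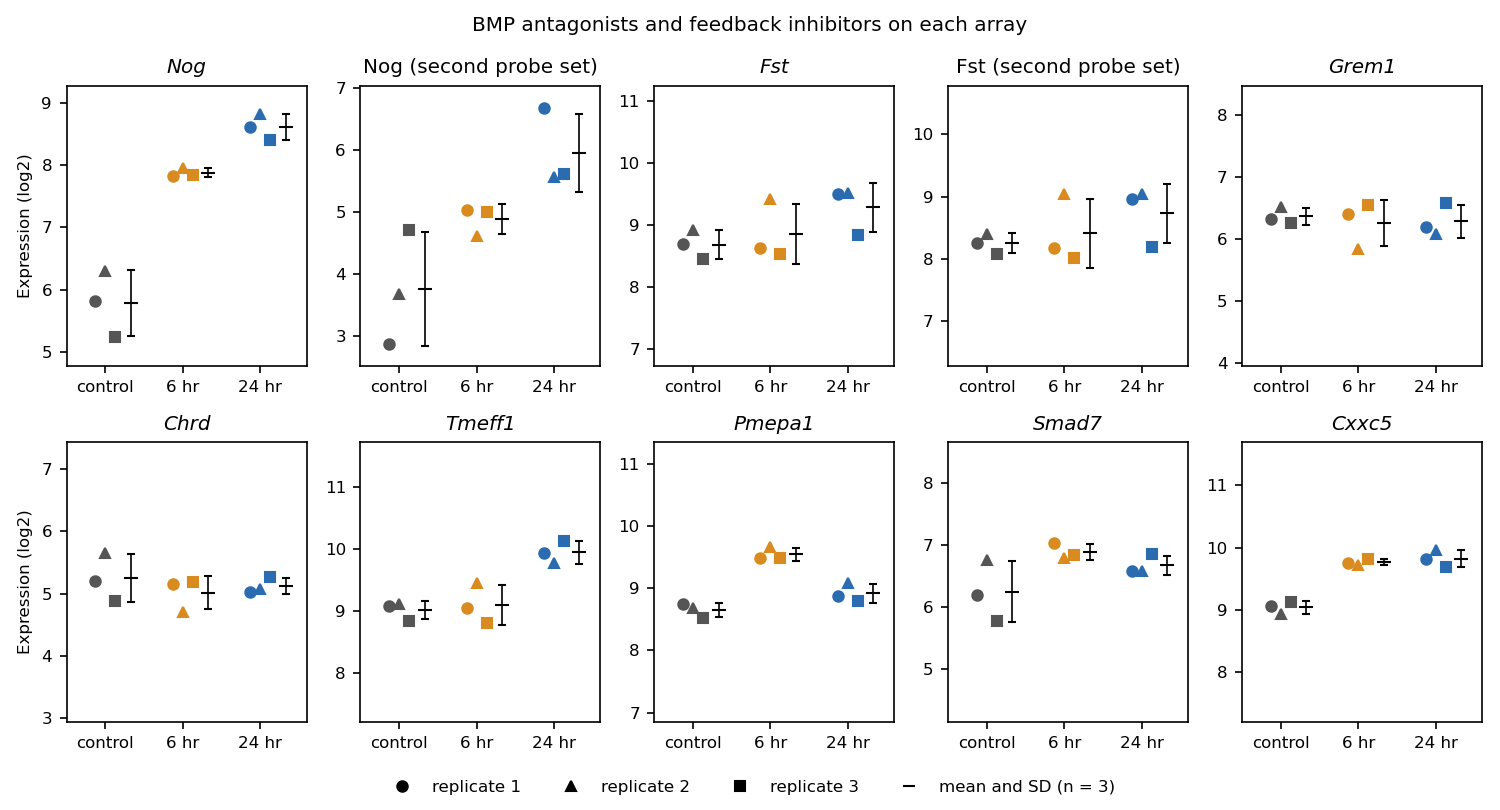
Log2 expression on each of the 9 arrays for the 10 probe sets of the 8 genes, one panel each, with groups on the x axis, points for arrays (shaped by replicate) and bars for the group mean ± SD (n = 3); each panel spans the same number of log2 units at its own offset. Nog is separated between all 3 groups at U31203_at, Pmepa1 is highest in BMP6h, Tmeff1 is highest in BMP24h, and Grem1 and Chrd overlap throughout.

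Of the membrane proteins, Tmeff1 was higher late and Pmepa1 early. Tmeff1 encodes a transmembrane protein with follistatin-like and EGF-like domains, known to inhibit Nodal signaling. Its control arrays read 9.08, 9.12 and 8.85, its BMP6h arrays 9.05, 9.45 and 8.81, and its BMP24h arrays 9.94, 9.77 and 10.13. The BMP24h arrays lay above all others, and BMP6h overlapped control. Against control, the log2 fold change of Tmeff1 was 0.08 at 6 hr, or -0.11 without BMP6h replicate 2, and 0.93 at 24 hr (SE 0.19; 1.90-fold), with 0.86 and 0.96 in batch 1 and batch 2 alone at 24 hr. BMP24h was 0.84 above BMP6h, or 1.03 without BMP6h replicate 2.

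Pmepa1 encodes a membrane protein that binds receptor-activated Smads and recruits Nedd4-type ubiquitin ligases. It read 8.75, 8.68 and 8.53 in control, 9.49, 9.67 and 9.48 in BMP6h, and 8.88, 9.08 and 8.79 in BMP24h. BMP6h lay above all other arrays, and BMP24h above control by a gap of only 0.04. On the log2 scale Pmepa1 stood 0.89 above control at 6 hr (SE 0.13; 1.86-fold; 0.82 without BMP6h replicate 2) and 0.26 above it at 24 hr, and BMP24h against BMP6h gave -0.63 (-0.56 without that array). Batch 1 and batch 2 alone gave 0.73 and 0.97 at 6 hr, 0.12 and 0.33 at 24 hr, and -0.61 and -0.64 between the times. Of the 8 genes, Pmepa1 alone had all BMP24h arrays below all BMP6h arrays.

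Inside the cell, Smad7 encodes an inhibitory Smad that binds activated type I receptors. Its control arrays were spread, at 6.20, 6.76 and 5.78, while BMP6h read 7.03, 6.79 and 6.84 and BMP24h 6.58, 6.59 and 6.85. BMP6h cleared the control arrays by a gap of 0.02, and BMP24h overlapped them. Smad7 was 0.64 log2 units above control at 6 hr (SE 0.24; 1.56-fold; 0.69 without BMP6h replicate 2) and 0.43 above it at 24 hr. The controls weighed on these values, which were 0.38 and 0.17 without control replicate 3, and 0.92 and 0.71 without control replicate 2. Batch 1 and batch 2 alone gave 0.83 and 0.54 at 6 hr.

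Cxxc5 encodes a CXXC zinc-finger protein that binds Dishevelled and inhibits Wnt signaling, and it is known as a BMP-induced gene. It read 9.06, 8.93 and 9.13 in control, 9.75, 9.72 and 9.82 in BMP6h, and 9.82, 9.96 and 9.69 in BMP24h. The arrays of both times lay above all controls and overlapped each other. Cxxc5 had log2 fold changes of 0.72 after 6 hr and 0.79 after 24 hr (SE 0.12; 1.65-fold and 1.72-fold), and 0.75 at 6 hr without BMP6h replicate 2. Between the times the difference was 0.06 (95% interval -0.23 to 0.35), or 0.04 without that array. Leaving out any single array kept it between 0.66 and 0.77 at 6 hr and between 0.71 and 0.86 at 24 hr.

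**Figure D3:**
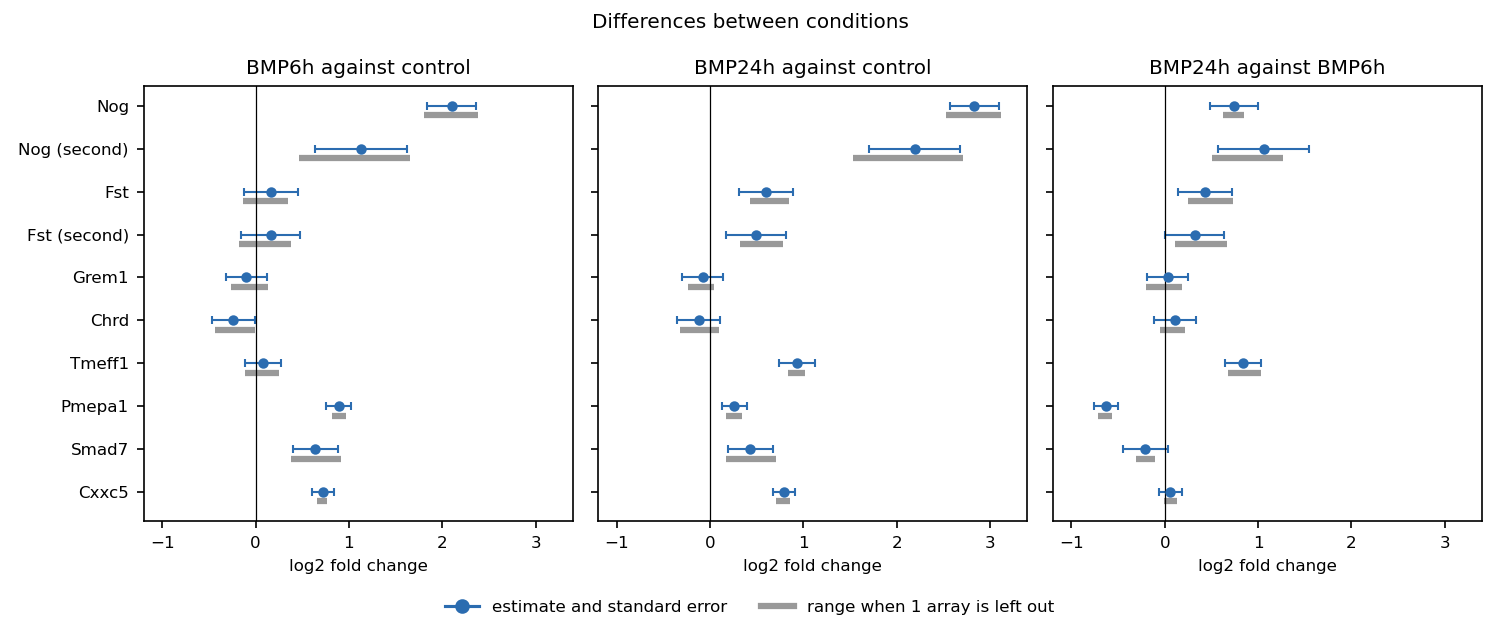
Log2 fold change (x axis) of the 10 probe sets in 3 panels, for each time against control and for the later time against the earlier, with points and bars for the estimate ± SE and gray bars for its range when 1 array is left out. Nog is farthest from 0 against control (2.10 and 2.83), Tmeff1 is near 0 at 6 hr and at 0.93 at 24 hr, and Pmepa1 alone lies clearly below 0 between the times (-0.63).

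Of the 10 probe sets, 4 had all BMP6h arrays above all control arrays (3.65% of all 8740 probe sets did) and none had all of them below (6.96%). At 24 hr 5 lay wholly above control (5.61% of all) and none wholly below (7.07%). From 6 to 24 hr, 3 lay wholly above (5.63%) and Pmepa1 wholly below (4.04%). Their median fold changes on the log2 scale were 0.40 and 0.54 at 6 and 24 hr, against -0.02 and 0.01 over all probe sets. At an adjusted p under 0.05, limma called 0.0458% of all probe sets at 6 hr and none of these 10, 0.217% at 24 hr with Nog U31203_at among them, and 0% between the times. Without adjustment limma called 5, 4 and 3 of the 10, and 151, 297 and 259 of all 8740. The same linear model (a two-way design of condition and batch) with each probe set's own variance, in place of limma's moderated one, called 0 of the 10 in each comparison after adjustment and 3, 4 and 2 without it. The Nog call at 24 hr was lost in that model, in batch 2 alone, without control replicate 1 and without any one of the BMP24h arrays. When a replicate block replaced the batch term, Nog U31203_at was called at 6 hr as well as at 24 hr, as it was without control replicate 2. Nog U31203_at was also called at both times with no batch term (too lenient, as given below), with dim probe sets dropped and with array weights. Each of these last settings also called Pmepa1 at 6 hr and Cxxc5 at 24 hr. Array weights called further probe sets of the 10, as counted below. Since the genes were chosen with these contrasts known, nothing is read from these counts.

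The genes whose arrays ran most like each of these were ranked by the root mean square gap, over the 9 arrays, between differences from the control mean. For Nog the nearest were Id1 (gap 0.499), Id2 (0.574) and Id3 (0.795), which encode helix-loop-helix inhibitors of transcription. Then came the neurotrophin receptor Ngfr (1.04) and Tmem64 (1.08), against a median gap of 2.07 over named probe sets. From 6 to 24 hr Id1, Id2 and Id3 differed by 0.04, -0.44 and -0.05, against 0.74 for Nog. Ngfr was ranked at X05137_at, with 0.73 at 6 hr and 1.91 at 24 hr, while its brighter probe set read 0.09 and 0.29. For Cxxc5 they were Hand1 (0.171), a transcription factor of sympathetic neurons, Klf10 (0.183) and Ppp1r16b (0.246), with a median of 0.663. The 3 Klf10 probe sets ran from 0.02 to 0.72 at 6 hr and from 0.01 to 0.74 at 24 hr. For Pmepa1 they were Dusp1 (0.141), a MAP kinase phosphatase, Rxrg (0.167) and Klf9 (0.209), with a median of 0.595. Dusp1 was ranked at U02553cds_s_at, with 0.78 at 6 hr and 0.39 at 24 hr. The study lists Dusp1 at another probe set, among the genes downregulated by BMP-7. For Tmeff1 they were Gch1 (0.211), which makes the cofactor of tyrosine hydroxylase, Qpct (0.232) and Olfm1 (0.236), with a median of 0.612. For Smad7 they were Timeless (0.177), Cd48 (0.188) and Marcks (0.191), with a median of 0.553. A gap is smaller for any gene with small differences, so gaps compare only within a gene.

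Among the other genes of the pathway, those called higher at an adjusted p under 0.05 were the Id genes, targets of BMP signaling. Of 104 other listed genes of BMP, activin and TGF-beta signaling, 58 were measured. The adjusted test called 2 higher at 6 hr and 3 at 24 hr, and none lower. By fold change alone, 31 were higher and 27 lower at 6 hr, and 30 were higher and 26 lower at 24 hr. The medians of all 58 were 0.03 and 0.01 log2 units. Id2 rose by 2.43 at 6 hr and 1.98 at 24 hr (SE 0.17; limma adjusted p = 0.00721 and 0.0109), and its 6 hr value was 2.49 without BMP6h replicate 2. Id3 rose by 1.76 and 1.71 (SE 0.17; limma adjusted p = 0.0292 and 0.0132). Without that array the Id3 value at 6 hr was 1.74 (limma adjusted p = 0.0922), and the other Id3 probe set gave 1.45 and 1.51 on all arrays (limma adjusted p = 0.0672 and 0.0195). Id1 rose by 2.04 at 24 hr (SE 0.28; limma adjusted p = 0.0491), and its 6 hr value of 1.99 had an adjusted p of 0.134 (1.94 without BMP6h replicate 2, when its 24 hr adjusted p was 0.0554). The Id1 values hold at L23148_g_at; the other Id1 probe set, L23148_at, read 0.06 at 6 hr and 0.18 at 24 hr. Some targets, the Id genes among them, were listed because the study names them as regulated on these arrays, so their direction is not independent evidence. At 24 hr all 3 calls were lost without control replicate 1 or 2 and without any BMP24h array, and at 6 hr both were lost when control replicate 1 was left out, as they were without replicate 1 of BMP6h or replicate 2 of BMP24h. Between 6 and 24 hr limma called 0 of the 58, and 2 had an unadjusted p under 0.05. Over the 15 measured targets (of 23 listed) the median was 0.37 at both times. Called or not, 12 of them were higher and 3 lower at 6 hr, and 13 were higher and 1 lower at 24 hr. The lower target at 24 hr, named after its values were seen, was Atf3 at -1.01 (limma adjusted p = 0.283). The study also describes Atf3 as downregulated by BMP-7.

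Of the ligands (16 of 25 listed were measured) none passed the test, with medians of -0.08 at 6 hr and -0.02 at 24 hr. The greatest differences were Bmp4 at -0.45 and Bmp6 at 0.42 at 6 hr, which were -0.19 and -0.06 without BMP6h replicate 2, and the TGF-beta relatives Gdf15 at -0.39 and Inhbb at -0.36 at 24 hr. None of the 10 receptors of 16 passed, among them the BMP type I receptor Bmpr1a at 0.20 and the activin receptor Acvr1b at -0.23 at 6 hr (0.06 and -0.07 without that array), and Acvrl1 at -0.43 at 24 hr. None of the 5 Smads of 6 passed. Smad3, which carries TGF-beta and activin signals, was at 0.44 at 6 hr and Smad9 at -0.38, but at -0.03 and -0.07 without BMP6h replicate 2. Smad1, a BMP Smad, was at -0.29 at 24 hr at its brightest probe set, while the other read -0.74 at 6 hr and -1.04 at 24 hr (limma adjusted p = 0.887 and 1).

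The other extracellular modulators (8 of 20) had medians of -0.12 and -0.22, with 7 of 8 lower at 24 hr and none past the test. They included the BMP antagonist Sostdc1 at -0.33 at 6 hr (-0.12 without BMP6h replicate 2), and at 24 hr matrix Gla protein Mgp at -0.48 and decorin, Dcn, at -0.73 (limma adjusted p = 0.323). The 4 Dcn probe sets ran from -0.82 to -0.01 at 24 hr. Mgp and Dcn are themselves part of the fibroblast mean given above, so its lower BMP24h range is not separate from their values. The 12 measured fibroblast markers had a median of -0.21 at 24 hr. They ran from -0.73 for Dcn and -0.65 for Lum to 0.08 for Col1a1, 0.15 for Fn1 and 0.25 for Thy1. The part of those cells was not tested. None of the other inhibitors of the cell or membrane (4 of 14) passed, with the ubiquitin ligase Nedd4 at -0.31 at 24 hr, Ctdsp1 at 0.02, and Ppm1a and Fkbp1a at 0.16 and 0.12 at 6 hr (0.04 and 0.17 without BMP6h replicate 2).

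**Figure D4:**
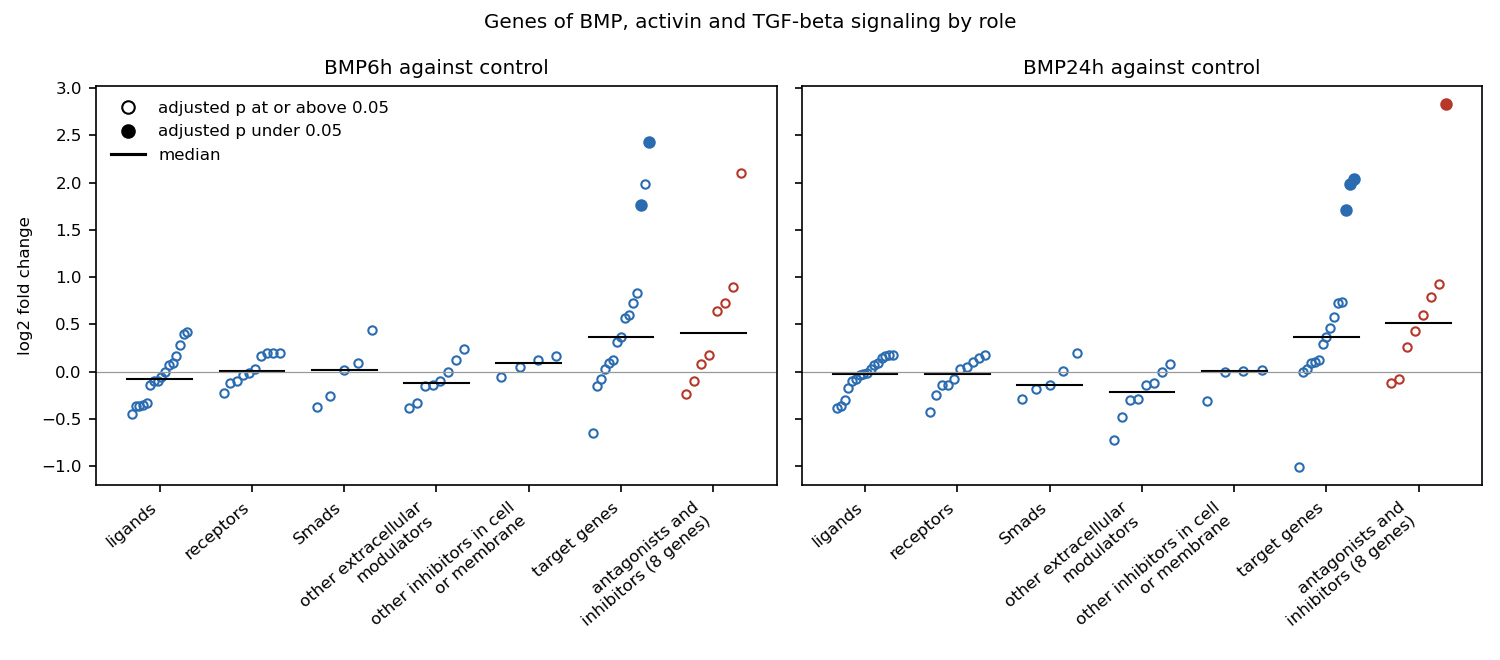
Log2 fold change against control at 6 hr and 24 hr (y axis), one point per gene by role, for the 58 other measured pathway genes (blue) and the 8 inhibitors at their main probe sets (red), with lines at the medians and filled points for an adjusted p under 0.05. Among the blue points the filled ones are targets (Id2 and Id3 at 6 hr, with Id1 at 24 hr), and Nog is filled at 24 hr.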

How the data were processed

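Per the labels and the study's methods, the authors processed 9 Rat Genome U34A arrays with RMA in Partek Genomics Suite and removed the batch difference. The deposited values are log2 expression. They hold no detection call, and batch means are equal to within 6.67e-05 in every probe set; SDs are therefore those after batch removal. No 2 arrays were identical. Arrays have no read depth; their number limits the precision.

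After removal of 59 control probe sets, 8740 of 8799 were tested; in the platform annotation 7006 have 1 gene, 308 several and 1426 none. A limma 3.58.1 model (R 4.3.3) with terms for condition and batch and 5 residual degrees of freedom was fitted over all probe sets, with Benjamini-Hochberg adjustment and a threshold of 0.05. The fit was tested on simulated data. SEs and 95% intervals are limma's. Replicates of a group are separate dissections.

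The genes and lists were chosen with earlier results of these data known. Each of the 8 genes is given at the probe set in the study's tables where they list it, otherwise at its brightest, with the second probe sets of Nog and Fst beside it; pathway genes and markers are given at their brightest, which for Ngfr is not the one in those tables. Pathway genes named are those past the adjusted test and, in each role, the 2 with the largest absolute difference at each time. Atf3 was added after its values were seen. The nearest genes are the 5 for Nog and the 3 for Cxxc5, Pmepa1, Tmeff1 and Smad7. Proteins were not used here. Alternatives covered an ordinary two-way ANOVA, batch, replicate block, dim probe sets, quantile normalization, array weights and leaving out each array.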

Additional observations from a re-analysis of the deposited data

How the results depend on the processing

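Of 504 fold change values of the 8 genes under the alternatives, 490 moved by less than 1 replicate SD and no called value changed sign. A sign change was seen in 24 small, uncalled values (Fst, Grem1 and Tmeff1 at 6 hr, Grem1 and Chrd at 24 hr, and Grem1, Chrd and Cxxc5 between the times). Several settings could not move a fold change: ANOVA, no batch term, replicate block, dropping dim probe sets, and leaving out an array of a group outside the comparison. The count of 490 includes such values, so it does not measure stability. The numbers of probe sets called at 6 hr, 24 hr and between the times (4, 19 and 0) became 0, 0 and 0 with an ordinary two-way ANOVA (151, 370 and 330 at an unadjusted p under 0.05) and 0, 0 and 0 in batch 2 alone. They became 9, 38 and 6 without a batch term, 9, 42 and 10 when dim probe sets were dropped, 4, 18 and 0 with quantile normalization, and 29, 280 and 198 with array weights, which called 3, 5 and 5 of the 10 probe sets of the 8 genes. Batch removal had already equalized the batch means, so dropping the batch term left the fold changes unchanged. It counted a residual degree of freedom that the removal had used, so the calls of that fit are too lenient. Leaving out each array gave 0 to 3, 0 to 26 and 0 to 0; at 24 hr none were left without control replicate 1 or any BMP24h array, and at 6 hr none when control replicate 1 was left out, nor without replicate 1 of BMP6h or replicate 2 of BMP24h. The pathway genes called (2, 3 and 0) became 0 and 0 at 6 and 24 hr with ANOVA and in batch 2 alone, 7, 9 and 3 with array weights, and 0 to 3 and 0 to 3 when an array was left out. The causes were not tested. Array weights ran from 0.093 for BMP6h replicate 2 to 5.76 for BMP24h replicate 1.

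Whether the replicate numbers pair the samples could not be tested: batch removal makes the replicate 1 deviations of the 3 groups sum to 0 (within 0.000133), so correlations of same-number deviations, from -0.74 to 0.53, are partly fixed by it. With the replicate block, 4, 18 and 5 probe sets and 2, 2 and 0 pathway genes were called, and Nog U31203_at was called at 6 and 24 hr.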
